A study of Mus musculus with 6 samples.

Results

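Kupffer cells are the macrophages that live in the sinusoids of the liver, and the 9 genes described here encode receptors with which they take up particles and ligands, or proteins by which they are recognised. The genes are Marco, Msr1, Cd163, Stab1, Mrc1, Cd5l, Clec4f, Timd4 and Vsig4. They were chosen by name, for particle uptake and resident macrophage identity, with earlier values of the same diet comparison known, so that the difference between diets is described here without a test. Each of the 9 symbols had 1 row in the deposited counts, which hold 55802 symbols, and all 9 were among the 17662 genes that passed a filter on low counts. The lowest count of any of them in a library was 74, for Cd163 in normal chow replicate 2 (exact 95% Poisson interval 58.1 to 92.9, counting error only).

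Liver was taken from male C57BL/6 mice reared for 71 weeks. The PS-MP group had chow that contained polystyrene microplastic (PS-MP), small particles of polystyrene, and the normal chow group had chow without it, with 3 RNA sequencing libraries each. The sources used here give neither the size nor the dose of the particles. Nothing in them says whether each library came from an animal of its own, so p-values measure the spread between these libraries, which may be technical. PS-MP libraries held 79081889, 79317092 and 79691824 counts, and normal chow libraries held 75897165, 68357478 and 112566641. Alb, the albumin gene of hepatocytes, took 5.34% to 6.72% of the counts in PS-MP libraries and 4.18% to 5.40% in normal chow libraries. Rn18s-rs5, a gene of 18S ribosomal RNA, took 0.387% to 1.14% in PS-MP libraries and 1.15% to 11.2% in normal chow libraries, ranges that all but met.

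Scavenger receptors bind polyanionic or altered ligands, among them bacterial walls, oxidised lipoproteins and bare particles, and carry them into the cell. Marco and Msr1 are class A receptors built as trimers with a collagen-like stem, and Marco is known from alveolar macrophages to bind particles that carry no antibody or complement. Cd163 takes up haemoglobin bound to haptoglobin, Mrc1 is the mannose receptor, and Stab1 is a large clearance receptor. Both Stab1 and Mrc1 are also made by sinusoidal endothelial cells. Clec4f is a lectin restricted to Kupffer cells in the mouse, Timd4 binds phosphatidylserine on dying cells and marks long-resident macrophages, Vsig4 is a receptor for fragments of complement C3, and Cd5l is a secreted protein of tissue macrophages.

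The promoters of 4 of these genes are printed, picked by the diet differences of the genes and not by their sequence. Marco and Timd4 stood apart between the diets, Vsig4 did so by the narrowest margin, and Clec4f had the smallest difference. Each sequence is the 250 bases before the start of transcription, read 5′ to 3′ on the strand of the gene, from RefSeq on GRCm38.p6, an earlier build than that of the counts. Capitals mark matches to 6 motifs searched on both strands: GAGGAA, the core of sites for ETS factors such as PU.1; TGCTGA, a partial site of Maf factors; AGGTCA, a single binding unit of nuclear receptors; TGACNNNGC, the core of the antioxidant response element; CACGTG, an E-box; and TGANTCA, an AP-1 site. A match on the other strand shows as its reverse complement.
Marco, chr1:120505025-120505274, minus strand: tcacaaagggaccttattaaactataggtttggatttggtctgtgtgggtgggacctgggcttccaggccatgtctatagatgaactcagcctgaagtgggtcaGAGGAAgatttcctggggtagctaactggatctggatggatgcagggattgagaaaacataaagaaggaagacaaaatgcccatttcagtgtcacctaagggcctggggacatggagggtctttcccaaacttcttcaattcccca
Timd4, chr11:46810549-46810798, plus strand: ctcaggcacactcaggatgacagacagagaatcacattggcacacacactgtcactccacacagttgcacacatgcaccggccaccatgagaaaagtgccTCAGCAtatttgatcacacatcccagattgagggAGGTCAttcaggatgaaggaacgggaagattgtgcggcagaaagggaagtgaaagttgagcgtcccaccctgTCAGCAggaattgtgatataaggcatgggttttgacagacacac
Vsig4, chrX:96293439-96293688, minus strand: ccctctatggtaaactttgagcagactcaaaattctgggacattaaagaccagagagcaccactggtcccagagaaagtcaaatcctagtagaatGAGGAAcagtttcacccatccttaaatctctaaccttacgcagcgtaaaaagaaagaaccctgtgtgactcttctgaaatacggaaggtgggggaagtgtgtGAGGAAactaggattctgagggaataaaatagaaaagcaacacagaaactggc
Clec4f, chr6:83656117-83656366, minus strand: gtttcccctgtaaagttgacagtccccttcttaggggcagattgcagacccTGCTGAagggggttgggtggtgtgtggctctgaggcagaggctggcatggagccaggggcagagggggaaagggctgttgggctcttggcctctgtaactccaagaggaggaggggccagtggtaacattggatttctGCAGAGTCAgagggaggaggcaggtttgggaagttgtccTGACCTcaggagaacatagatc

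In these windows, Marco held 1 GAGGAA, which began 146 bases before the start. Vsig4 held 2, at 155 and 53 bases. Timd4 had TGCTGA at 150 and 44 bases and AGGTCA at 116 bases, and Clec4f had TGCTGA at 199, the antioxidant core at 61 and AGGTCA at 22 bases. None of the marked matches overlapped another. Among the 8 genes of the 9 with a promoter sequence, which leaves out Msr1, GAGGAA was in 5, TGCTGA in 4, AGGTCA in 2 and the antioxidant core in 1. Of 27025 mouse promoters of the same length, 23.1% held GAGGAA, 15.8% TGCTGA, 13.8% AGGTCA and 10.1% the antioxidant core. E-box and AP-1 letters were in 0 of the 8, against 6.05% and 6.87% of all promoters. A match is a description of the letters in the window.

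Marco differed most between the diets. It had 1889, 743 and 738 counts in the PS-MP libraries and 246, 213 and 163 counts in the normal chow libraries. As TMM CPM, the counts scaled to library size with edgeR's TMM factors, these were 22.9, 8.42 and 8.62 in PS-MP and 3.39, 3.50 and 1.54 in normal chow. The lowest PS-MP library was 2.41 times the highest normal chow library. PS-MP replicate 1 stood 2.69 times above the mean of the other PS-MP libraries. The means were 13.3 ± 8.32 CPM in PS-MP and 2.81 ± 1.10 CPM in normal chow (SD, n = 3 each), with an edgeR log2 fold change of 2.25 (SE 0.52), or 4.75-fold. Without PS-MP replicate 1 the log2 fold change was 1.60, and without normal chow replicate 3 it was 1.95. Among the 12471 tested genes with a mean of at least 1 CPM, 33 had a log2 fold change at or above that of Marco.

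**Figure D1:**
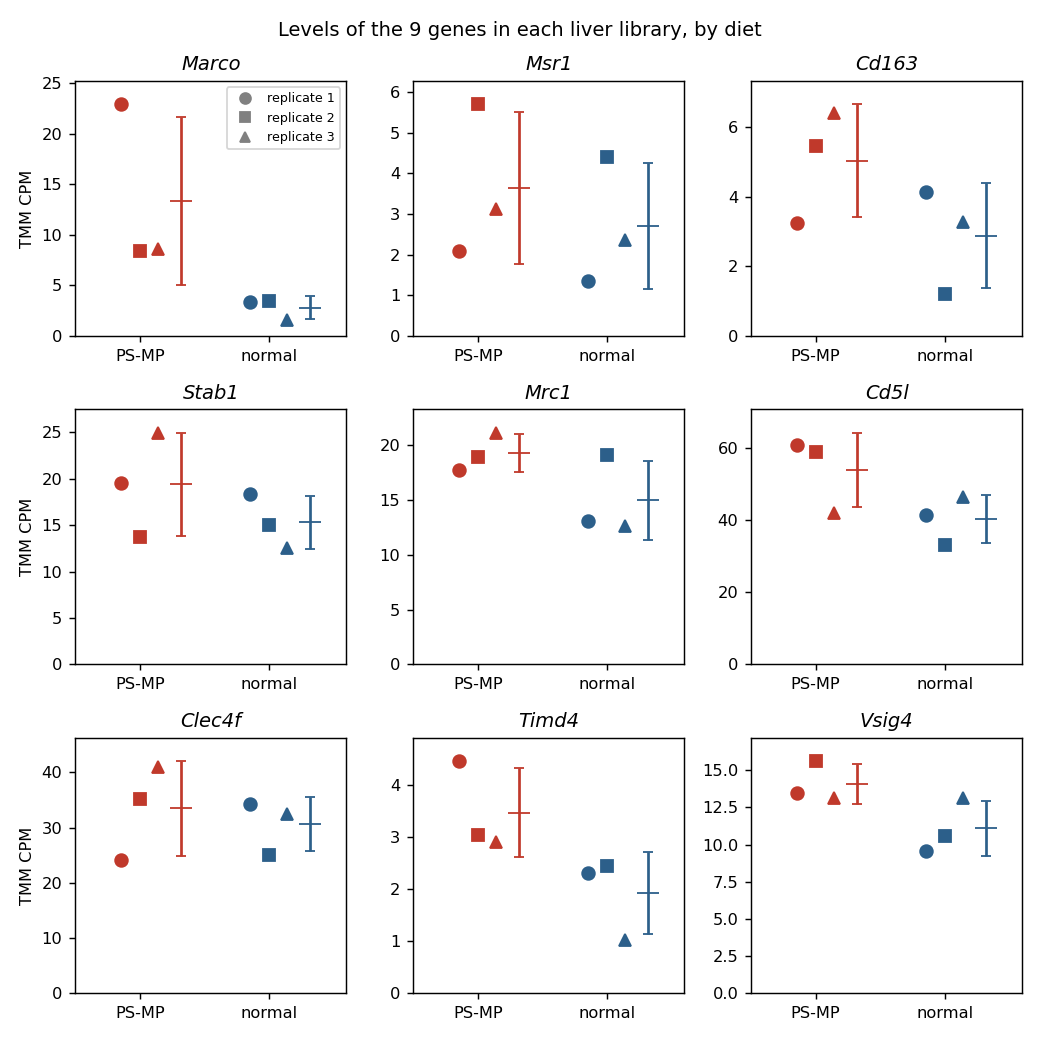
TMM CPM of the 9 genes in each of the 6 libraries, with PS-MP in red and normal chow in blue, the marker shape giving the replicate number, and horizontal and vertical bars giving mean and SD (n = 3). Marco and Timd4 do not overlap between the diets, the PS-MP and normal chow values of Vsig4 all but meet at 13.15 CPM, and the other genes overlap.

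Other uptake receptors differed less and overlapped between the diets. Msr1, the other class A receptor, was at 2.09, 5.70 and 3.12 CPM in PS-MP and 1.35, 4.40 and 2.36 CPM in normal chow. The log2 fold change of Msr1 was 0.43 (SE 0.53), and it was -0.05 without PS-MP replicate 2. Within each diet, its library of replicate 2 was the highest and that of replicate 1 the lowest, an order unlike that of Marco.

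The haemoglobin receptor gene Cd163 was at 3.24, 5.45 and 6.40 CPM in PS-MP and 4.15, 1.22 and 3.27 CPM in normal chow. PS-MP replicate 1, the library with the most Marco, lay below normal chow replicates 1 and 3 for Cd163. The log2 fold change was 0.80 (SE 0.48), and without normal chow replicate 2, the lowest library, it was 0.44.

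For Stab1 the levels were 19.5, 13.8 and 24.9 CPM in PS-MP and 18.3, 15.1 and 12.5 CPM in normal chow, a log2 fold change of 0.34 (SE 0.26). Stab1 overlaps Nt5dc2 on the opposite strand in the GENCODE M21 annotation, and because the strand setting of the counts is not given, reads of the 2 genes cannot be told apart. Mrc1 was at 17.8, 19.0 and 21.1 CPM in PS-MP and 13.1, 19.1 and 12.7 CPM in normal chow (log2 fold change 0.37, SE 0.20). Mir511 lies within Mrc1 on the same strand. Only normal chow replicate 2 reached the PS-MP range of Mrc1.

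Of the identity genes, Timd4 was the one with the largest difference. It had 368, 269 and 249 counts in PS-MP and 168, 149 and 107 in normal chow, or 4.47, 3.05 and 2.91 CPM in PS-MP and 2.31, 2.45 and 1.01 CPM in normal chow. The diets did not overlap for Timd4, and its lowest PS-MP library was 1.19 times its highest normal chow library. Its means were 3.47 ± 0.863 CPM in PS-MP and 1.92 ± 0.793 CPM in normal chow (SD, n = 3 each), a log2 fold change of 0.86 (SE 0.39), and without normal chow replicate 3 it was 0.55. PS-MP replicate 1 was the highest library and normal chow replicate 3 the lowest, as for Marco.

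Vsig4, the complement receptor gene, was at 13.5, 15.6 and 13.1 CPM in PS-MP and 9.53, 10.6 and 13.1 CPM in normal chow. PS-MP replicate 3 and normal chow replicate 3 were equal to the second decimal, at 13.15 CPM, and the diets overlapped when ribosomal RNA genes were removed before scaling or no filter on low counts was used. The log2 fold change was 0.34 (SE 0.18). Cd5l, the secreted protein gene with the highest level of the 9, was at 60.8, 59.0 and 42.1 CPM in PS-MP and 41.4, 33.2 and 46.3 CPM in normal chow (log2 fold change 0.42, SE 0.20). PS-MP replicate 3 lay below normal chow replicate 3 for Cd5l, so the diets overlapped.

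Clec4f, the gene most specific to mouse Kupffer cells, had 1990, 3112 and 3512 counts in PS-MP and 2487, 1521 and 3440 in normal chow. These were 24.2, 35.2 and 41.0 CPM in PS-MP and 34.3, 25.0 and 32.5 CPM in normal chow. The library with the most Marco, PS-MP replicate 1, was the lowest of all 6 for Clec4f. The log2 fold change was 0.13 (SE 0.23), and it was -0.06 without PS-MP replicate 3. Set against Clec4f in the same library, Marco stood at 94.9%, 23.9% and 21.0% of its CPM in PS-MP and at 9.89%, 14.0% and 4.74% in normal chow, again without overlap.

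Taking the 9 genes as a list, all 9 log2 fold changes were above zero, where 52.8% of all genes tested were above zero. Their median was 0.42, and 0.39 over the 8 genes other than Marco, beside 0.02 over all genes. The 5 uptake receptors had a median of 0.43 and the 4 identity genes one of 0.38. The diets did not overlap, with PS-MP higher, for 3 of the 9 (Marco, Timd4 and Vsig4), where 6.24% of the genes tested stood apart with PS-MP higher and 4.99% with PS-MP lower. With the edgeR quasi-likelihood test, 0 of the 9 passed an adjusted p of 0.05 and 1 had an unadjusted p under 0.05, where 0.0113% of all genes passed as higher in PS-MP and 0.00% as lower, and 2.80% were higher and 2.58% lower at the unadjusted level. DESeq2 called 1 of the 9, Marco, where it called 0.351% of all genes as higher and 0.708% as lower, and limma-voom called 0 of the 9, where it called 0.00566% as higher. These counts come from the comparison in which the genes were chosen and are given as a description.

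**Figure D2:**
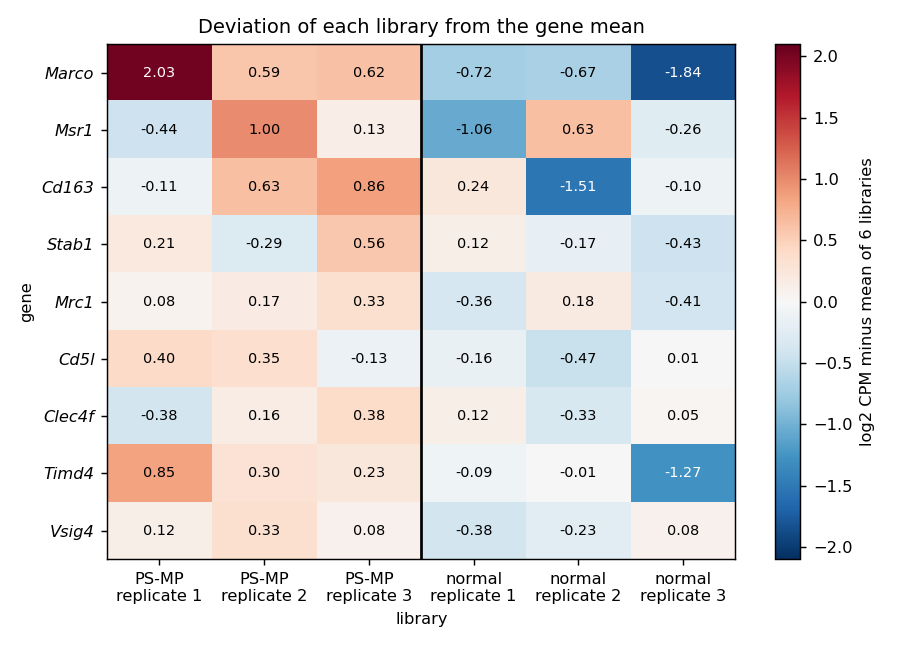
Log2 CPM of each of the 9 genes (rows) in each library (columns, PS-MP left of the black line and normal chow right of it) minus the mean of the gene over the 6 libraries, with red above and blue below that mean. Marco spans 2.03 in PS-MP replicate 1 to -1.84 in normal chow replicate 3. Timd4 has its extremes in the same 2 libraries, at 0.85 and -1.27, while Clec4f is at its lowest, -0.38, in PS-MP replicate 1.

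The 9 genes did not follow one order across libraries. Among the PS-MP libraries, replicate 1 was the highest for 3 genes (Marco, Cd5l and Timd4) and the lowest for 4 (Msr1, Cd163, Mrc1 and Clec4f). Among the normal chow libraries, replicate 3 was the lowest for 4 genes (Marco, Stab1, Mrc1 and Timd4) and the highest for 2 (Cd5l and Vsig4). Over the 6 libraries each gene had its highest value in a PS-MP library, and 8 had their lowest in a normal chow library, Clec4f being the exception.

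Levels were compared between the genes as CPM per kilobase of exon, with exon lengths from GENCODE M21. Cd5l was the highest at 26.5 ± 5.06 in PS-MP and 19.8 ± 3.25 in normal chow, followed by Clec4f, at 13.5 ± 3.47 in PS-MP and 12.4 ± 1.99 in normal chow, and Vsig4, at 9.49 ± 0.906 in PS-MP and 7.47 ± 1.25 in normal chow (SD, n = 3 each). Marco was number 4 of the order in PS-MP, at 6.92 ± 4.32 CPM per kilobase, and number 6 in normal chow, at 1.46 ± 0.571, behind Mrc1 and Stab1. The other 5 genes stayed in 1 order in both diets, that is Mrc1, Stab1, Timd4, Cd163 and Msr1, with mean levels of 3.03 to 0.573 in PS-MP and 2.35 to 0.426 in normal chow. The ranges of every pair of neighbours in the order over all 6 libraries overlapped. Within single libraries, Cd5l exceeded Clec4f, Clec4f exceeded Vsig4 and Mrc1 exceeded Stab1 in 6 of 6, while Marco exceeded Mrc1 in 3 of 6.

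Genes made by macrophages at large were compared in the same fit, which tests each gene over all 17662. In bulk liver, fewer cells of a type and less RNA per cell cannot be told apart. Of 17 pan-macrophage genes, 16 had a log2 fold change above zero, with a median of 0.37 beside 0.02 for all genes. With edgeR 0 of the 17 passed and 2 were higher at an unadjusted p under 0.05, where 2.80% of all genes were. For 6 of the 17 the diets did not overlap with PS-MP higher, beside 6.24% of all genes. DESeq2 and limma-voom also called 0 of the 17, and calls on the lists that follow are those of edgeR unless another tool is named. Beside the counts of those lists stand these shares of all genes. Without overlap, 6.24% were higher in PS-MP and 4.99% lower. At an unadjusted p under 0.05 (edgeR), 2.80% were higher and 2.58% lower. DESeq2 called 0.351% as higher and 0.708% as lower. The summed level of the 17 pan-macrophage genes was 231 to 299 CPM in PS-MP libraries and 193 to 216 CPM in normal chow libraries, without overlap. Adgre1, the gene of the macrophage antigen F4/80, averaged 10.4 ± 2.88 CPM in PS-MP and 6.38 ± 1.34 CPM in normal chow (SD, n = 3; log2 fold change 0.70, 95% interval 0.08 to 1.33, edgeR adjusted p = 0.903). C1qc, a chain of complement C1q, averaged 21.2 ± 1.03 CPM in PS-MP and 15.5 ± 2.31 CPM in normal chow (SD, n = 3; log2 fold change 0.45, interval 0.08 to 0.82, adjusted p = 0.869). Csf1r, the receptor that macrophages need to survive, had 0.41 (interval -0.11 to 0.94, adjusted p = 0.943) and the lysosomal marker Cd68 had 0.37 (interval -0.06 to 0.79, adjusted p = 0.923).

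Each of the 9 genes was then expressed as a percent of the summed level of the 17 pan-macrophage genes in its library. Marco was at 7.67%, 3.16% and 3.73% in PS-MP and 1.71%, 1.81% and 0.712% in normal chow, which did not overlap, with a ratio of means of 3.44 where the CPM gave 4.74. For the other 8 genes the libraries of the diets overlapped on this scale. Cd163 had a ratio of 1.39 and Timd4 one of 1.34. The remaining 6 lay between 0.864 (Clec4f) and 1.03 (Msr1), with 0.982 for Vsig4, 0.994 for Mrc1, 0.985 for Stab1 and 1.02 for Cd5l. With Adgre1 alone as the divisor the ratio for Marco was 2.55 and with Csf1r alone 3.20, and in both the diets did not overlap. The ratios of the other 8 genes moved with the divisor. With Adgre1 alone they lay between 0.723 (Clec4f) and 1.20 (Cd163), and with Csf1r alone between 0.806 (Clec4f) and 1.39 (Cd163), all overlapping. With Clec4f alone as the divisor Cd163 was at 1.65, without overlap, and Timd4 at 1.74, with overlap. These divisors were chosen after the values were seen.

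**Figure D3:**
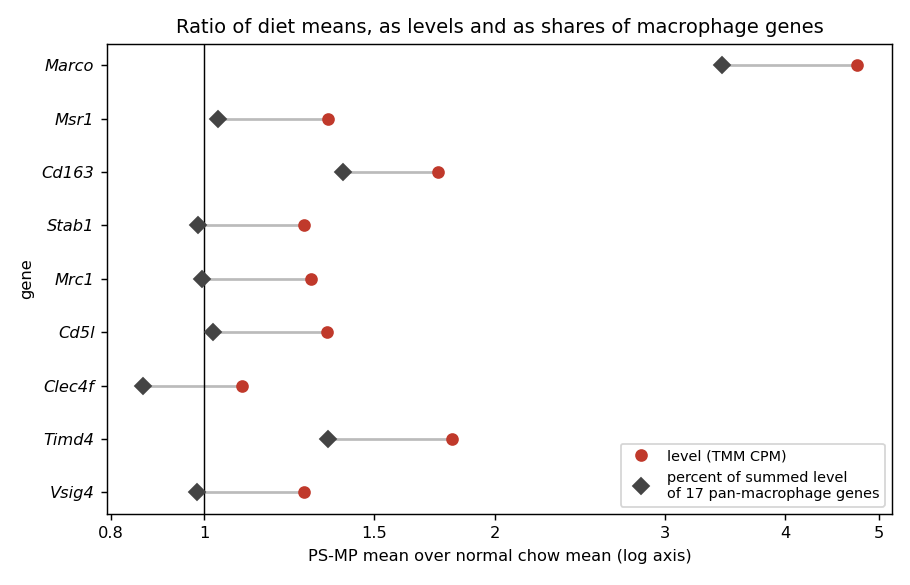
Ratio of the PS-MP mean to the normal chow mean for each of the 9 genes on a log axis, from TMM CPM (red circles) and from the percent of the summed level of 17 pan-macrophage genes (dark diamonds). On the second scale Marco is at 3.44, Cd163 and Timd4 at 1.39 and 1.34, and the other genes between 0.864 and 1.03.

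Of 16 other genes of Kupffer cells 11 were above zero and 5 below, with a median of 0.09. With edgeR 0 passed and 2 had an unadjusted p under 0.05, and DESeq2 called 1, Hmox1. The diets did not overlap for 4 with PS-MP higher and 1 with PS-MP lower. Their summed level overlapped, at 444 to 545 CPM in PS-MP and 494 to 554 CPM in normal chow. Abundant genes weigh most in such a sum, and bulk liver does not show which cells made their RNA. In normal chow, Nr1h3 of this list was at 76.3 to 94.1 CPM, where Spic averaged 0.411 CPM. Hmox1, the haem oxygenase gene, was at 20.0, 18.1 and 17.5 CPM in PS-MP and 12.1, 10.8 and 12.3 CPM in normal chow (log2 fold change 0.66, interval 0.33 to 0.99, edgeR adjusted p = 0.767, DESeq2 adjusted p = 0.00877). All 3 PS-MP libraries lay above all normal chow libraries for Hmox1. Spic, a transcription factor of iron-recycling macrophages, averaged 0.920 ± 0.214 CPM in PS-MP and 0.411 ± 0.156 CPM in normal chow (SD, n = 3; log2 fold change 1.15, interval 0.24 to 2.06, edgeR adjusted p = 0.840).

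Transcription factors of Kupffer cells were 9 above and 6 below zero, with a median of 0.07. Bulk liver does not show which cells made these RNAs, so the values need not be those of Kupffer cells alone. Nr1h3 was at 76.3 to 94.1 CPM over the 6 libraries, where Clec4f was at 24.2 to 41.0 CPM. With edgeR 0 of 15 passed and 1 had an unadjusted p under 0.05, and the diets did not overlap for 1 in each direction. For Spi1, the gene of PU.1, the log2 fold change was 0.07 (interval -0.43 to 0.57), and for Nr1h3, the gene of the sterol receptor LXR alpha, it was 0.05 (interval -0.27 to 0.37), so that 2-fold changes lay outside both intervals. Their signs turned when single libraries were left out. Smad1, which carries BMP signals, was at 10.4 ± 0.349 CPM in PS-MP and 12.5 ± 0.405 CPM in normal chow (SD, n = 3; log2 fold change -0.26, adjusted p = 0.940). The 12 genes of niche signals that support these cells, such as Csf1, Dll4 and Bmp10, had a median of 0.05, 0 calls with 0 at an unadjusted p under 0.05, and 3 without overlap, PS-MP higher.

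Of 18 scavenger receptors outside the 9, 16 were tested, 10 above and 6 below zero, with a median of 0.06, 0 calls and 0 at an unadjusted p under 0.05. The diets did not overlap for 1, Ssc5d, a soluble scavenger receptor gene of low level. It was at 0.364, 0.283 and 0.385 CPM in PS-MP, against 0, 0.148 and 0.104 CPM in normal chow (log2 fold change 2.03, interval -0.09 to 4.14, adjusted p = 0.923). Lrp1, a large receptor for lipoprotein remnants and protease complexes, was at 104, 356 and 61.7 CPM in PS-MP and 372, 293 and 394 CPM in normal chow. Its log2 fold change was -1.02 (interval -2.49 to 0.45, adjusted p = 0.964), and -2.09 without PS-MP replicate 2, the only PS-MP library within the normal chow range. Cd36, which takes up fatty acids and oxidised lipoproteins, averaged 109 ± 25.5 CPM in PS-MP and 105 ± 28.7 CPM in normal chow (SD, n = 3; log2 fold change 0.06, interval -0.56 to 0.68, adjusted p = 0.9998). Phagocytic receptors and adaptors had 13 of 16 above zero and a median of 0.22, with 0 calls, 2 at an unadjusted p under 0.05 and 3 without overlap, PS-MP higher. Those 2 were Fcgr3, a receptor for antibody, with a log2 fold change of 0.54 (interval 0.11 to 0.96, adjusted p = 0.840), and Clec4n, the gene of dectin-2, with 0.68 (interval 0.09 to 1.27, adjusted p = 0.900).

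Of 10 genes of ligands and cargo, 8 were above zero, with a median of 0.24, 0 calls, 1 at an unadjusted p under 0.05 and 2 without overlap, PS-MP higher. Hp, the haptoglobin whose complex with haemoglobin Cd163 binds, averaged 3347 ± 668 CPM in PS-MP and 2792 ± 510 CPM in normal chow (SD, n = 3; log2 fold change 0.26, interval -0.26 to 0.78, adjusted p = 0.9998). Hbb-bs, a globin gene whose reads can be shared with near-identical copies, was at 149, 166 and 239 CPM in PS-MP and 108, 59.2 and 116 CPM in normal chow (log2 fold change 0.97, interval 0.24 to 1.69, adjusted p = 0.814), without overlap.

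Markers of other cell types were read beside these genes, and their part in the differences was not tested. Sinusoidal endothelial markers, which bear on Stab1 and Mrc1, had 11 of 12 genes above zero, a median of 0.27, 0 calls, 1 at an unadjusted p under 0.05 and 1 without overlap. They summed to 153 to 211 CPM in PS-MP and 132 to 161 CPM in normal chow. The gene without overlap was Ushbp1, at 3.45, 3.24 and 4.86 CPM in PS-MP and 0.923, 1.94 and 2.17 CPM in normal chow (log2 fold change 1.20, interval 0.31 to 2.08, adjusted p = 0.805). Stab2, the relative of Stab1, ranged from 2.95 to 25.9 CPM within PS-MP and from 4.27 to 23.4 CPM within normal chow. Neutrophil markers had 5 of 7 tested genes above zero and a median of 1.10. With edgeR 0 of the 7 passed, and 3 were higher at an unadjusted p under 0.05, where 2.80% of all genes were. For 4 the diets did not overlap with PS-MP higher, beside 6.24% of all genes. DESeq2 called 1, S100a9, where it called 0.351% of all genes as higher. The 12 with a row summed to 3.48 to 8.53 CPM in PS-MP and 2.12 to 2.97 CPM in normal chow, without overlap, with Ly6g at 0 counts in every library. S100a9 was highest in PS-MP replicate 2, at 2.40 CPM, and not in the library with the most Marco. It averaged 1.39 ± 0.914 CPM in PS-MP and 0.338 ± 0.0364 CPM in normal chow (SD, n = 3; log2 fold change 2.04, edgeR adjusted p = 0.767, DESeq2 adjusted p = 0.0380), and without PS-MP replicate 2 the log2 fold change was 1.39.

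Genes of monocytes and recruited macrophages had 11 of 14 above zero, a median of 0.20, 0 calls with 0 at an unadjusted p under 0.05 and 1 without overlap, PS-MP higher, and their sums overlapped at 34.9 to 43.5 CPM in PS-MP and 31.3 to 49.3 CPM in normal chow. Lymphocyte markers had a median of 0.14 and summed to 8.85 to 27.3 CPM in PS-MP and 11.0 to 22.2 CPM in normal chow. Dendritic cell markers had a median of 0.35 and summed to 5.49 to 7.07 CPM in PS-MP and 4.65 to 7.44 CPM in normal chow. Stellate cell markers had a median of 0.03 and summed to 383 to 482 CPM in PS-MP and 433 to 445 CPM in normal chow. Mesothelial markers had 5 of 5 tested genes above zero and a median of 0.81, above the 0.37 of the pan-macrophage genes. Of these 5, 1 was higher at an unadjusted p under 0.05 (edgeR) and 1 did not overlap, PS-MP higher. The mesothelial sums were 5.68 to 7.26 CPM in PS-MP and 2.07 to 7.51 CPM in normal chow. Adipocyte markers had 2 of 5 above zero and a median of -0.06, with 2 lower at an unadjusted p under 0.05 (edgeR) and 1 without overlap, PS-MP lower. Their sums were 66.2 to 104 CPM in PS-MP and 53.6 to 147 CPM in normal chow. Hepatocyte markers had 4 of 7 above zero and a median of 0.05. Of 171 distinct genes on all these lists, edgeR called 0, with 12 higher and 2 lower at an unadjusted p under 0.05, where 2.80% of all genes tested were higher and 2.58% lower at that level. DESeq2 called 3 of them, Hmox1 and S100a9 as higher and the adipocyte gene Retn as lower, and limma-voom called 0.

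**Figure D4:**
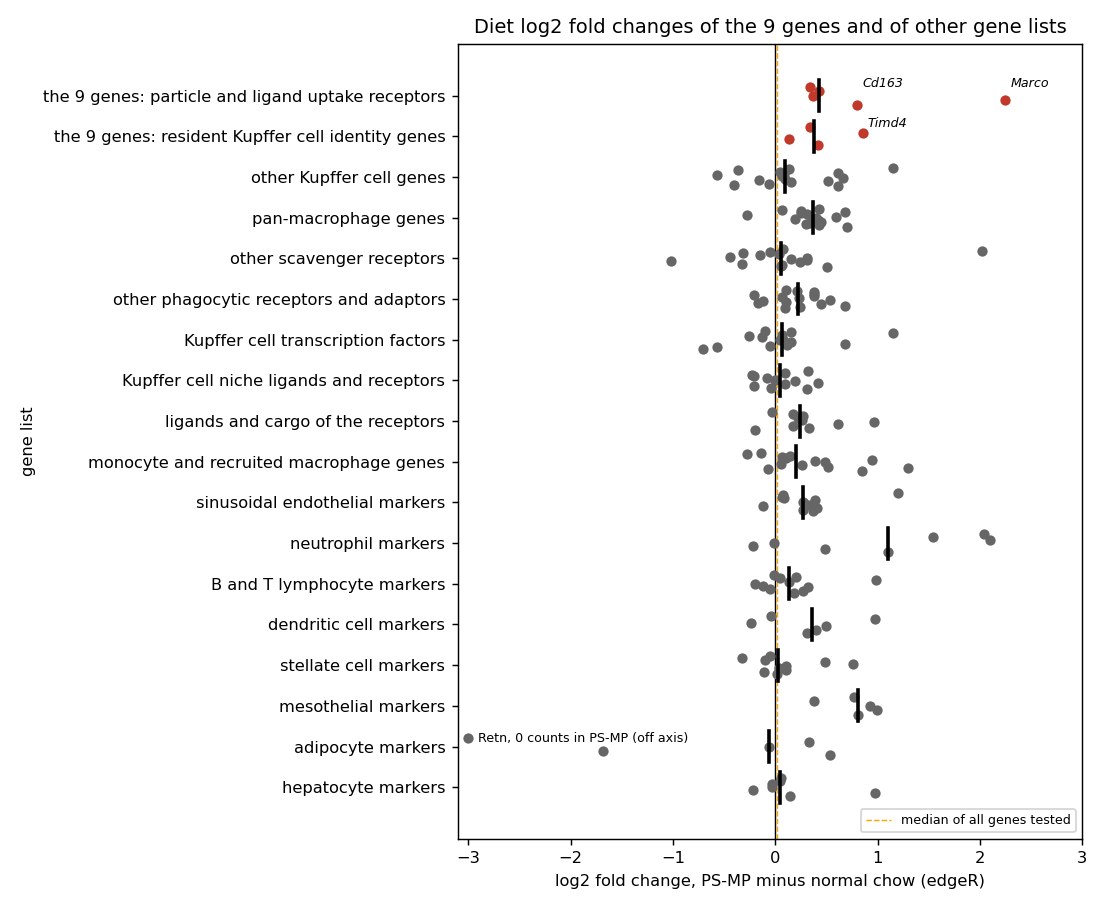
EdgeR log2 fold changes (PS-MP minus normal chow) of the 9 genes in red and of the genes on other lists in grey, with a black tick at the median of each list and a dashed line at the median of all genes tested, 0.02. The pan-macrophage list has its median at 0.37 and the neutrophil markers at 1.10, and Marco at 2.25 lies to the right of the other genes of its list; Retn, with 0 counts in PS-MP, is drawn at the left edge.

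The genes whose levels followed Marco most closely were found by Pearson correlation of log2 CPM over the 6 libraries, among 11195 named genes with a mean of at least 1 CPM. They were Mug2, a murinoglobulin of plasma (r = 0.99), Pilra, a receptor of myeloid cells (0.98), Zfp276 (0.98), Unc13a (0.98) and Qars (0.98). After the mean of each diet was subtracted, r was 0.93 to 0.98 for these 5. With only 6 libraries, split by diet and unequal in depth, such values are a description. Of the 8 other genes, Timd4 was most like Marco (r = 0.93, or 0.90 after the diet means were subtracted) and ranked 43 in the same order, and Clec4f was least like it (-0.19 and -0.76).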

How the data were processed

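RNA of 6 mouse liver samples was sequenced from poly(A)-selected, directional libraries, per the labels' protocols. The deposited values are raw read counts per gene symbol. The submitters' processing notes name bcl2fastq and GRCm39; no aligner, counting program, annotation or strand setting is named in them (not given in the sources used here). Rows of the 67 repeated symbols were summed, and none of the 9 genes was among them. The members and lists were chosen with earlier results of these data known.

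Counts were filtered (filterByExpr by diet), scaled by TMM and fitted with the quasi-likelihood test of edgeR 4.0.16 in R 4.3.3, with diet as the only term and Benjamini-Hochberg adjustment across 17662 genes. Log2 fold changes are PS-MP minus normal chow, and 95% intervals use the moderated degrees of freedom. The fit was also run on simulated counts, drawn with the spread that edgeR estimated from these data. That simulation held no differences in composition between libraries, so it does not speak to such differences. DESeq2 1.42.0 and limma-voom (limma 3.58.1) were alternatives. Named beyond the 9 were 11 fixed genes, the 2 with the smallest p of each list, and the 5 most like Marco; not all are printed. Depth limits precision, and Poisson intervals cover counting error only. Protein sequences were not used here.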

Additional observations from a re-analysis of the deposited data

How the results depend on the processing

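In all 15 alternatives, the log2 fold change of Marco lay between 1.60 and 2.49 and the median of the 9 genes between 0.38 and 0.63. All 9 genes stayed above zero except that Msr1 was below it without PS-MP replicate 2 and Clec4f without PS-MP replicate 3. Scaling by library size alone moved the median of all genes to 0.23 and that of the 9 genes from 0.42 to 0.63. The diets then did not overlap for 5 of the 9, where this held for 17.5% of all genes. The TMM factors themselves stood apart by diet, at 1.04, 1.11 and 1.08 in PS-MP and 0.957, 0.891 and 0.940 in normal chow. The size of small log2 fold changes thus depends on the scaling. With a library left out, 2 to 5 of the 9 did not overlap. There were 2 without normal chow replicate 1 (11.1% of all genes, PS-MP higher) and 5 without PS-MP replicate 1 (9.89% of all genes). Marco and Timd4 were among them each time. Both already stood apart with all 6 libraries, and leaving a library out can hardly undo that. Genes called over all numbered 2 higher and 0 lower; DESeq2 called 62 and 125, limma-voom 1 higher, and fits without a library 0 to 3 higher and 0 to 1 lower (0 higher without normal chow replicate 3, 1 without PS-MP replicate 1 or 3, and 3 higher with 1 lower without normal chow replicate 2). With a library left out, log2 fold changes crossed zero for Spi1 (-0.025 to 0.18), Nr1h3 (-0.037 to 0.12), Cd36 (-0.14 to 0.25), Cd3g (-0.024 to 0.70) and Stab2 (-0.43 to 0.57, and -0.14 with limma-voom). The cause was not tested.

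The sources used here do not say whether equal replicate numbers pair the libraries, and so few correlations cannot settle it. Deviations of same-numbered libraries correlated at 0.14, 0.15 and -0.12, and 2 of 3 PS-MP libraries were closest to their own number. With the replicate block 0 genes were called higher and 0 lower, the log2 fold change of Marco was 2.18 and the median of the 9 genes 0.42. Counting intervals were narrow beside the spread between libraries: in normal chow, Msr1 had 98 counts (79.6 to 119) in replicate 1 and 268 (237 to 302) in replicate 2.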
